A study of Mus musculus with 11 samples.

Results

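The mitochondrial import translocase genes were the 26 genes whose symbol starts with Tomm or Timm followed by a digit, pseudogenes left out, among 54532 genes in the count table of the pancreas and 46078 in that of adipose tissue. They comprised 10 outer membrane genes (Tomm), 15 inner membrane genes (Timm) and Tomm6os, an RNA gene that lies antisense to Tomm6. Outer and inner here follow the symbol alone. They include the cytosolic Tomm34 and chaperones of the intermembrane space such as Timm13, Timm8b and Timm8a1. The adipose table lists 25 of the 26 genes under these symbols, and Timm29 was found there through its gene identifier under an older name. Transcripts were measured in 5 pancreas libraries (2 control, 3 OA-AP) and 6 libraries of epididymal fat (3 in each group). All were wild-type male mice, C57BL/6 and 16 weeks old per the labels and C57BL/6J per the methods of the study. Control mice ate chow with 10 kcal % fat for 12 weeks and were then injected with saline. OA-AP mice, labelled Model, carry obesity-related and alcohol-induced acute pancreatitis: they ate a high-fat diet with 60 kcal % fat for 12 weeks and then received ethanol at 2 g/kg in 2 intraperitoneal injections 1 h apart. Tissue was taken 12 h after the first injection. Diet, ethanol and pancreatitis differed together, so their parts in any difference cannot be told apart.

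Nearly all mitochondrial proteins are made in the cytosol and enter the organelle through these complexes. Precursors are recognised by receptors of the TOM complex on the outer membrane and threaded through its Tomm40 channel. Those with a cleavable presequence are then handed to the TIM23 complex of the inner membrane and pulled into the matrix by a chaperone motor, whereas multi-spanning carrier proteins are escorted by small Timm chaperones across the intermembrane space to the TIM22 complex. Acinar cells of the exocrine pancreas rely on mitochondrial ATP for secretion, and mitochondrial failure is a known feature of acinar cell necrosis.

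The pancreas libraries held 14188832 to 17238919 counts on genes and the adipose libraries 20825177 to 27928097. A fixed list of 24 acinar digestive enzyme genes took 70.4% to 72.1% of the counts in control pancreas and 54.3% to 56.3% in OA-AP pancreas, so that the share left for all other genes differed between the groups. Levels below are counts-per-million values (CPM) after scaling with TMM factors, which set the bulk of genes level between libraries. Scaled to library totals alone, the median change over every tested gene in the pancreas went from 0.04 to 0.75 on the log2 scale, a shift of 0.71, and DEGs went from 1744 lower and 2090 higher to 506 lower and 5843 higher. Pancreas changes of import genes are therefore changes relative to the bulk of genes. In adipose tissue the same shift was -0.15. Adipocyte markers summed to 30957 CPM or more in every adipose library, and adipose control replicate 2 carried 0.951% acinar counts where the other adipose libraries carried 0.0186% to 0.0260%. Neutrophil markers (6 genes) summed to 1.03 to 1.89 CPM in control pancreas and 3.43 to 90.6 CPM in OA-AP pancreas, and to 5.68 to 12.1 CPM and 165 to 186 CPM in control and OA-AP adipose tissue. Adipocyte markers (8 genes) summed to 36.6 to 51.5 CPM in control pancreas, with Cidec, Lep, Plin1 and Retn at 0, and to 73.9 to 102 CPM in OA-AP pancreas. The part of these cells in the results below was not tested. In such bulk tissue, fewer cells of a type and less RNA per cell cannot be told apart.

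Of the 26 genes, 23 had enough counts to be tested in each tissue, namely 8 outer and 14 inner membrane genes and Tomm6os. Tomm20l, the paralog of the receptor Tomm20, had 0 counts in every library except for 1 count in adipose control replicate 3. Timm8a2 had 0 counts except for 2 in adipose control replicate 2. Tomm6, a small TOM subunit, had at most 1 count in any pancreas library and at most 5 in any adipose library. The annotation places 84.2% of the exonic bases of Tomm6 under exons of Tomm6os, Usp49 or Gm21981, so its low counts cannot be read as a low level. Tested members had 3 to 592 counts per library in the pancreas and 11 to 2668 in adipose tissue, which makes the adipose values the more precise.

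Levels of different genes were compared per kilobase of the deposited gene length. In control pancreas Tomm5, a small TOM subunit, led with 15.8 ± 3.02 CPM per kilobase (SD, n = 2), followed by the intermembrane space chaperones Timm13 with 14.1 ± 0.637 and Timm8b with 13.7 ± 5.61, which did not differ beyond their spread. In control adipose tissue Timm8b led with 52.8 ± 2.83 CPM per kilobase (SD, n = 3), ahead of Timm23, a core subunit of the TIM23 complex, with 36.7 ± 3.84 and the small TOM subunit Tomm7 with 30.3 ± 3.18. At the low end of the coding genes tested, the TIM22 subunit Timm10b stood at 0.652 ± 0.332 CPM per kilobase in control pancreas, and Tomm40l, the second copy of the channel gene, at 1.38 ± 0.266 in control adipose tissue. Timm23 held rank 10 per kilobase in control pancreas and rank 4 in OA-AP pancreas, where it had 9.07 ± 1.30 CPM per kilobase (SD, n = 3) against 3.72 ± 0.0445 in controls. Timm17b, its partner in the TIM23 complex, went the other way, from rank 5 to rank 10. Of the channel paralogs, Tomm40l lies opposite the exons of Nr1i3 over 64.3% of its exonic bases, and without strand in the counting the reads of the pair cannot be told apart.

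**Figure D1:**
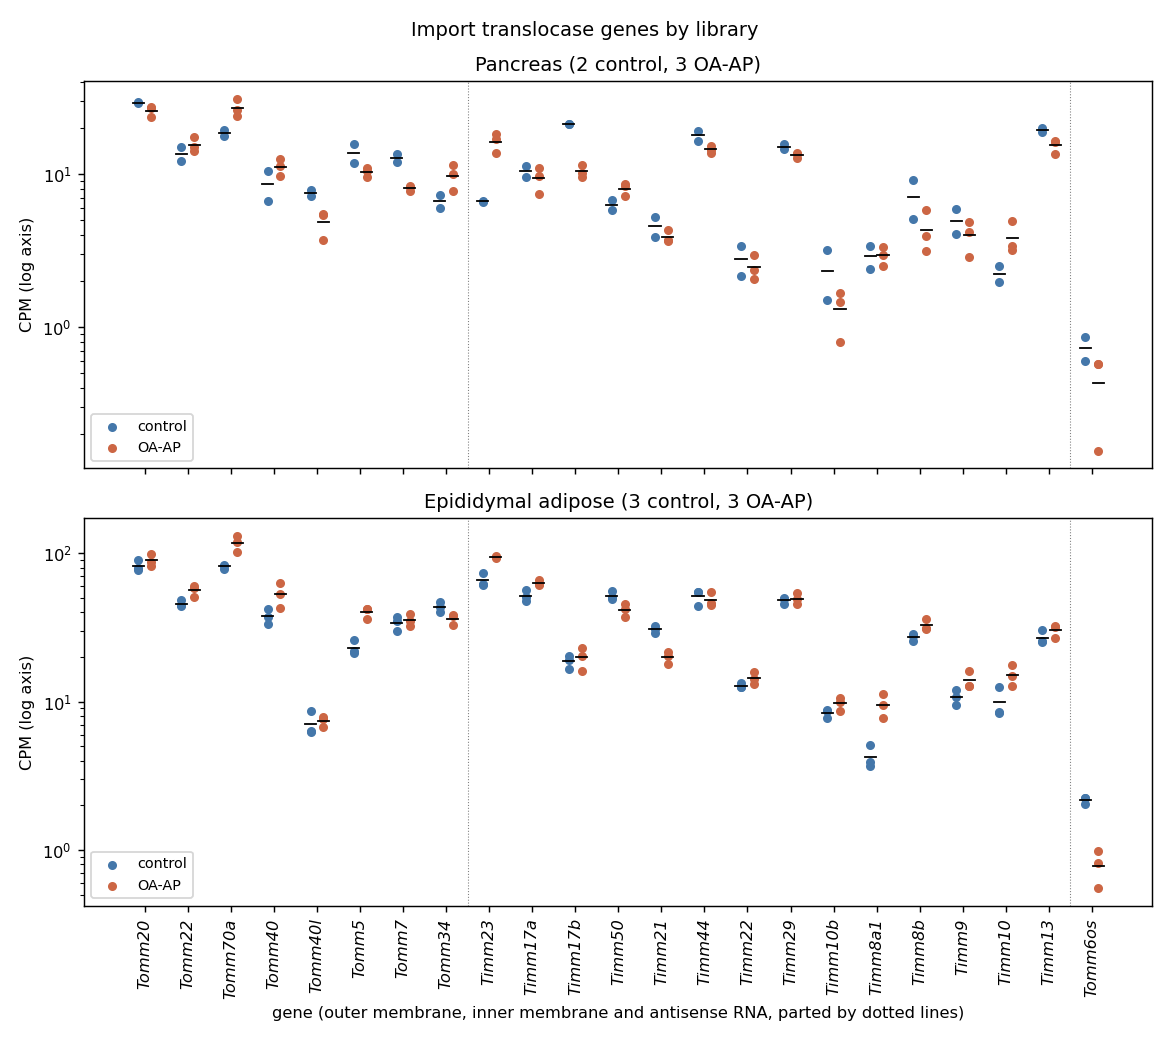
CPM on a log axis of the 23 tested import genes in each library, with control libraries in blue, OA-AP libraries in orange and group means as black bars (upper panel pancreas, lower panel adipose tissue). Timm23 and Timm17b part the pancreas groups in opposite directions, at 6.58 to 6.69 against 13.6 to 18.1 CPM and at 21.1 to 21.3 against 9.50 to 11.5 CPM.

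In the pancreas, 1 import gene was upregulated and 2 were downregulated in OA-AP mice, under thresholds of a Benjamini-Hochberg adjusted p of 0.05 over all 12884 tested genes and a fold change of 1.5. The TIM23 subunit Timm23 was the upregulated gene, and its partner Timm17b and the TOM subunit Tomm7 were the downregulated ones. Of all tested genes 13.5% were lower and 16.2% higher by the same criteria, 29.8% in either direction, so that 3 of 23 is a smaller share than the background. The median log2 fold change was 0.01 over the 8 outer membrane genes and -0.21 over the 14 inner membrane genes, against 0.04 over all genes. With library totals alone both medians turned upward with all genes, to 0.73 and 0.50 against a median of 0.75. The CPM of the groups did not overlap for 9 members that were lower and 5 that were higher in OA-AP pancreas, against 29.4% and 32.9% of all tested genes.

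Timm23 is a core subunit of the TIM23 complex of the inner membrane (GRCm38, chr14:32180162-32201898, minus strand). It measured 6.69 and 6.58 CPM in the control pancreas libraries and 16.9, 13.6 and 18.1 CPM in the OA-AP libraries. Every OA-AP value was above both controls. The log2 fold change was 1.29 (SE 0.19), with an adjusted p of 0.00192 by edgeR's quasi-likelihood test. Timm23 stayed higher in OA-AP mice under all 13 fits of the pancreas, with log2 fold changes from 1.15 to 1.99. Of its exonic bases, 5.82% are shared with Gm23946.

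Timm17b is 1 of the alternative partners of Timm23 (chrX:7899357-7908351, plus strand). It measured 21.3 and 21.1 CPM in controls and 11.5, 9.50 and 10.2 CPM in OA-AP pancreas. The groups were far apart relative to their spread, with a log2 fold change of -1.03 (SE 0.15) and an adjusted p of 0.00183. With library totals alone the value was -0.31 and not called, which differs by -1.06 from the median of all genes under that scaling. The paralog Timm17a (chr1:135295213-135313778, minus strand) measured 9.52 and 11.3 CPM in controls and 9.66, 7.38 and 11 CPM in OA-AP pancreas, overlapping groups with a log2 fold change of -0.15 (SE 0.21, adjusted p = 0.617).

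Tomm7, which regulates the assembly of the TOM complex and helps to hold PINK1 at the outer membrane (chr5:23838944-23844161, minus strand), measured 11.9 and 13.5 CPM in controls and 8.19, 7.78 and 8.37 CPM in OA-AP pancreas. All 3 OA-AP values were lower, with a log2 fold change of -0.64 (SE 0.16, adjusted p = 0.0190). This call was lost when control replicate 1 (adjusted p = 0.0755), control replicate 2 (adjusted p = 0.148) or OA-AP replicate 1 (adjusted p = 0.0668) was left out, and with library totals alone the log2 fold change was 0.070.

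The receptor Tomm70a, which takes in carrier precursors from cytosolic chaperones (chr16:57121703-57156705, plus strand), measured 19.3 and 17.6 CPM in control pancreas and 26.1, 23.9 and 31.0 CPM in OA-AP pancreas. Its adjusted p was 0.0324, but its fold change of 1.46 fell short of the threshold. It was the only member in this position in the pancreas; by adjusted p alone, 15.2% of all tested genes were lower and 17.8% higher. The other 19 tested members did not pass, with log2 fold changes from -0.83 (Timm10b) to 0.78 (Timm10). Timm10 measured 1.97 and 2.49 CPM in controls and 3.20, 3.38 and 4.92 CPM in OA-AP pancreas, groups that did not overlap, with an adjusted p of 0.105. Timm10b, from 14 to 37 counts, overlapped between the groups.

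Stretches upstream of 4 members are shown because these genes changed in different ways: Timm23 and Tomm70a had adjusted p under 0.05 and higher values in OA-AP mice in the pancreas and, as given later, in adipose tissue, Timm17b was lower in the pancreas, and Tomm5 rose in adipose tissue. They are the 250 bases before the RefSeq start on GRCm38.p6, 5′ to 3′ on the strand of the gene, at chr14:32201892-32202141 (minus strand), chr16:57121464-57121713 (plus), chrX:7899086-7899335 (plus) and chr4:45108114-45108363 (minus). Capitals mark the core CCGGAAGT of ETS factors such as GABP, on either strand.
Timm23: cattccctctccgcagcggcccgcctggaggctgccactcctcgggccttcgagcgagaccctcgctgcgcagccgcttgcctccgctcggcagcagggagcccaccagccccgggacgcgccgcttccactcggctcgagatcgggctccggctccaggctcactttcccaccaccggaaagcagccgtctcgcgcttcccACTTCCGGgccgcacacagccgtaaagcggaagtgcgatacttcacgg
Tomm70a: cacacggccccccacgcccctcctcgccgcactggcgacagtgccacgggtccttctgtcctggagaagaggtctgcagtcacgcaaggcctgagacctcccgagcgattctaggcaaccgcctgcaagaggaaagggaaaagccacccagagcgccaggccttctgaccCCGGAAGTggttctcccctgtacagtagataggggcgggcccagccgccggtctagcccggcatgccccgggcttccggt
Timm17b: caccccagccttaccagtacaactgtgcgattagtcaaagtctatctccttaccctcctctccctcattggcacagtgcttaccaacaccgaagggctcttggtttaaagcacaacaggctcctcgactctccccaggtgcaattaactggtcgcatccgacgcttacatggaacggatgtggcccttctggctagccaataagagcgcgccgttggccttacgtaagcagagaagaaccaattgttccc
Tomm5: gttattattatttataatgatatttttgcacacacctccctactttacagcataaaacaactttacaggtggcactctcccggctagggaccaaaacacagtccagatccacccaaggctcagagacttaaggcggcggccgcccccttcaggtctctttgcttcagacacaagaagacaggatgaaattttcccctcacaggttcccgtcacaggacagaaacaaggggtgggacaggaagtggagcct

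RefSeq windows from 250 bases before to 50 after a start were found for 23 of the 26 members, not for Timm21, Tomm40l and Tomm7. On both strands, the ETS core occurred in the windows of 6 of these 23 genes (Timm10, Timm10b, Timm23, Timm29, Timm8a2 and Tomm70a). Counted by window, it was in 6 of the 25 windows of these 23 genes and in 3.89% of all 32851 windows. The NRF1 core GCATGCGC was found only at Timm13 among the members and in 2.71% of all windows, and the YY1 core AAGATGGC only at Timm50 and in 2.75%. The ATF4 composite element TTGCATCA was at no member and in 0.895% of all windows. Matches of different motifs were counted separately and may overlap, and they describe the sequence only. The ETS core was in the window of Timm23, which rose in the pancreas, and in that of Timm29, a TIM22 subunit called in neither tissue, with log2 fold changes of -0.19 (SE 0.14) in the pancreas and 0.04 (SE 0.09) in adipose tissue.

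In adipose tissue, 3 coding import genes were upregulated in OA-AP mice (Tomm5, Timm8a1 and Timm10) and 1 was downregulated (Timm21), and the antisense RNA Tomm6os was downregulated as well. Of all 15839 tested genes 13.0% were lower and 12.1% higher, 25.1% in either direction, against 5 of 23 import genes. Most values were small and above 0: 18 of the 22 coding genes had a log2 fold change above 0, against 7730 of all 15839 tested genes. The medians were 0.21 over the outer and 0.20 over the inner membrane genes against -0.01 over all genes. With library totals alone these medians were 0.06 and 0.05 against -0.17 over all genes. Of the 23 members, Tomm6os counted among them, 13 were then above 0. The groups did not overlap for 10 members that were higher and 4 that were lower in OA-AP mice, against 26.4% and 26.0% of all tested genes.

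Tomm5, which stabilises the TOM channel (chr4:45105208-45108114, minus strand), measured 26.0, 21.8 and 21.4 CPM in control adipose tissue and 42.4, 35.9 and 42.0 CPM in OA-AP adipose tissue. The lowest OA-AP value lay well above the highest control, with a log2 fold change of 0.80 (SE 0.12, adjusted p = 0.00282). In the pancreas the gene measured 11.8 and 15.6 CPM in controls against 10.5, 9.61 and 10.9 CPM, a log2 fold change of -0.40 (SE 0.18, adjusted p = 0.115).

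Timm8a1, the mouse counterpart of the human deafness-dystonia gene and a chaperone of the intermembrane space (chrX:134537256-134541865, minus strand), measured 5.09, 3.69 and 3.91 CPM in control and 11.2, 7.74 and 9.44 CPM in OA-AP adipose tissue. It had the largest increase among the members there, with a log2 fold change of 1.16 (SE 0.20, adjusted p = 0.00550). Both Tomm5 and Timm8a1 were called in all 14 fits of adipose tissue. Timm10, which forms the main carrier chaperone with Timm9 (chr2:84826997-84830213, plus strand), measured 12.7, 8.56 and 8.44 CPM in control and 17.7, 12.7 and 15.0 CPM in OA-AP adipose tissue. Its highest control lay just below its lowest OA-AP value, and its log2 fold change of 0.61 (SE 0.20) had an adjusted p of 0.0497. Timm10 was not called without control replicate 2, the library with acinar counts (0.53, adjusted p = 0.126), nor without control replicate 3 (adjusted p = 0.145), OA-AP replicate 1 (adjusted p = 0.132) or OA-AP replicate 3 (adjusted p = 0.107). It was also not called with library totals alone (0.46, adjusted p = 0.100) or with at least 10 counts required in every library (adjusted p = 0.0520), which left 8 of 14 fits with the call.

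Timm21, which couples the TIM23 complex to the outer membrane and to the respiratory chain, measured 31.0, 29.1 and 32.1 CPM in control and 21.7, 17.9 and 20.5 CPM in OA-AP adipose tissue. Every OA-AP value was lower, with a log2 fold change of -0.62 (SE 0.10, adjusted p = 0.00468). This is close to the fold threshold, and without control replicate 3 (-0.57) or without OA-AP replicate 2 (-0.54) the fold change fell under 1.5 while the adjusted p stayed under 0.05. Tomm6os (chr17:47687610-47691083, plus strand) measured 2.03, 2.25 and 2.25 CPM in control and 0.985, 0.817 and 0.556 CPM in OA-AP adipose tissue, from 11 to 66 counts. Its log2 fold change was -1.46 (SE 0.27, adjusted p = 0.00624), and 51.3% of its exonic bases are shared with Tomm6, Frs3, Gm21981 or Prickle4, so part of its signal may belong to them.

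A further 5 coding genes were higher by adjusted p alone in OA-AP adipose tissue (Tomm70a, Timm23, Tomm40, Tomm22 and the TIM23 subunit Timm17a), and 1 was lower, the presequence receptor Timm50. By adjusted p alone, 19.4% of all tested genes were higher and 17.5% lower there. Tomm70a measured 78.6, 82.4 and 83.5 CPM in control and 131, 103 and 119 CPM in OA-AP adipose tissue, which is 1.44-fold higher (log2 fold change 0.53, SE 0.11, adjusted p = 0.00956). Timm23 measured 73.5, 62.2 and 61.1 CPM in control and 93.5, 95.4 and 93.8 CPM in OA-AP adipose tissue, also 1.44-fold higher (log2 fold change 0.52, SE 0.10, adjusted p = 0.00672). The log2 fold changes of the others were 0.50 for the channel Tomm40, 0.30 for the central receptor Tomm22, 0.29 for Timm17a and -0.32 for Timm50.

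**Figure D2:**
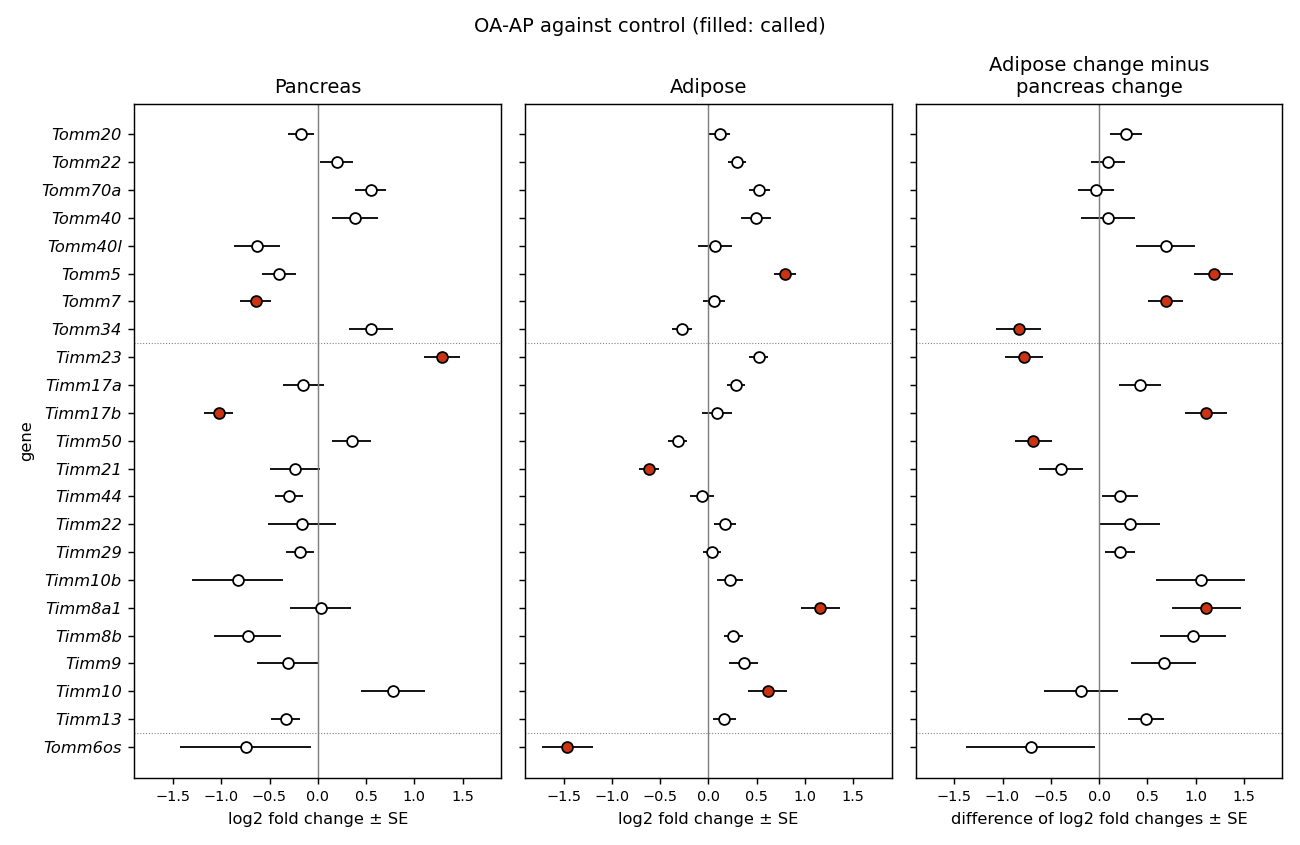
Log2 fold change of OA-AP against control with its SE for each tested import gene in the pancreas (left) and adipose tissue (middle), and the adipose value minus the pancreas value (right), with filled points past both thresholds and dotted lines between outer membrane genes, inner membrane genes and Tomm6os. Filled points are 3 in the pancreas, 5 in adipose tissue and 7 in the difference, of 23 each.

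The change differed between the tissues for 7 members in the tissue by condition test over all 11 libraries, where 10.2% of 17046 tested genes had a lower and 10.4% a higher change in adipose tissue, 20.6% in all. The adipose change was the higher for Tomm5 (difference 1.19, SE 0.20, adjusted p = 0.00176), Timm17b (1.11, SE 0.22, adjusted p = 0.00377), Timm8a1 (1.11, SE 0.36, adjusted p = 0.0446) and Tomm7 (0.69, SE 0.18, adjusted p = 0.0186). It was the lower for Timm23 (-0.78, SE 0.20, adjusted p = 0.0153), Tomm34, a cytosolic cochaperone of precursors (-0.83, SE 0.23, adjusted p = 0.0253), and Timm50 (-0.68, SE 0.19, adjusted p = 0.0256). Tomm34 and Timm50 were not called in either tissue alone. Tomm70a had log2 fold changes of 0.55 in the pancreas and 0.53 in adipose tissue, with a difference of -0.03 (SE 0.19). With library totals alone the median of all genes moved by -0.84, the 4 higher differences were no longer called and that of Tomm7 was -0.16. Timm23 and Tomm34 were not called without pancreas control replicate 1. Without pancreas control replicate 2 the calls were 2, Tomm5 and Timm17b, and these were the only calls when same-numbered libraries of both tissues were taken as 1 mouse. Timm8a1 was called in 6 of 20 fits.

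**Figure D3:**
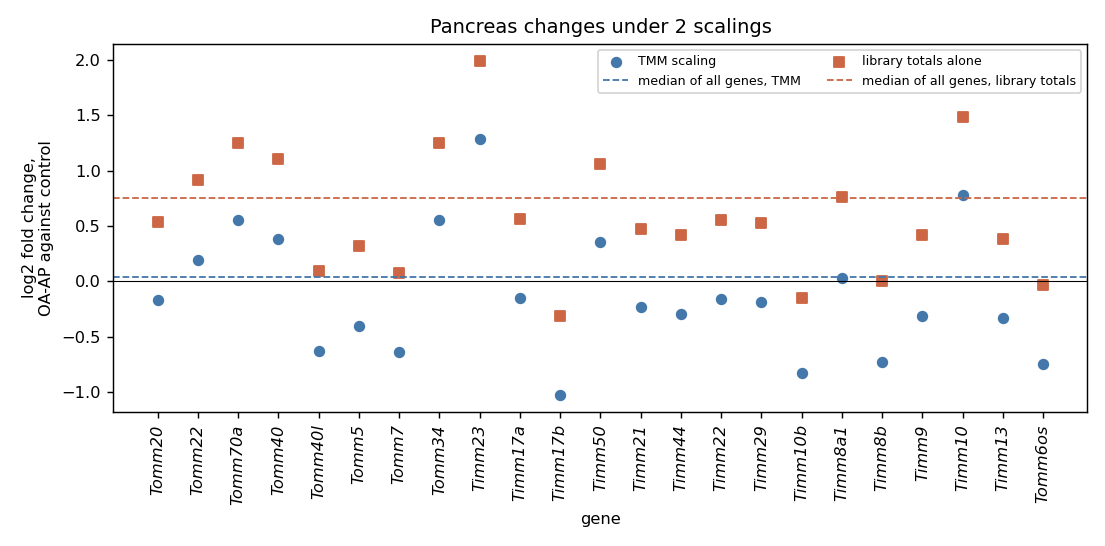
Log2 fold change of OA-AP against control pancreas for each tested import gene under TMM scaling (blue circles) and library totals alone (orange squares), with the median of all tested genes as dashed lines at 0.04 and 0.75. The squares lie above the circles by about the shift of 0.71 between the scalings, so that Tomm7 moves from -0.64 to 0.070 while Timm23 stays highest and Timm17b lowest among the squares.

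Ratios of 2 members within a library depend on its scaling only through the prior count of 2, which is scaled with library size. For 7 pairs of members these ratios were compared between the groups. In the pancreas the groups stood apart for every one of the 7 pairs, so standing apart there is not particular to the pairs described below. In adipose tissue they stood apart for Timm8a1/Timm8b, Tomm20/Tomm70a and Timm22/Timm23 and overlapped for the others. No share over other pairs of genes was computed. No ratio passed correction: the smallest two-sided exact permutation p in these designs is 0.1, and the adjusted p over the 14 tests was 0.2 or more. The log2 ratio of Timm17a to Timm17b was -1.15 and -0.90 in control pancreas and -0.25, -0.36 and 0.11 in OA-AP pancreas, a difference of 0.86 (exact permutation p = 0.1). In adipose tissue this ratio overlapped, at 1.56, 1.61 and 1.23 in control and 1.57, 1.92 and 1.52 in OA-AP mice.

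The ratio of Timm22, the channel of carrier proteins, to Timm23 was -1.58 and -0.93 in control and -2.97, -2.15 and -2.88 in OA-AP pancreas. In adipose tissue it was -2.46, -2.31 and -2.28 in control and -2.71, -2.85 and -2.57 in OA-AP mice. The OA-AP values were the lower in both tissues, with differences of -1.41 and -0.36 on the log2 scale (exact permutation p = 0.1 in each). Timm22 itself had overlapping groups in both tissues, with log2 fold changes of -0.17 (SE 0.35) in the pancreas and 0.17 (SE 0.11) in adipose tissue. The ratio of the receptors Tomm20 to Tomm70a was 0.58 and 0.74 in control and 0.03, -0.02 and -0.18 in OA-AP pancreas, and -0.02, -0.05 and 0.12 in control and -0.40, -0.32 and -0.44 in OA-AP adipose tissue. The groups stood apart in both tissues, by -0.72 and -0.40 (exact permutation p = 0.1 in each). The ratio of Timm8a1 to Timm8b was -2.47, -2.78 and -2.79 in control and -1.68, -2.00 and -1.70 in OA-AP adipose tissue, a difference of 0.89 (exact permutation p = 0.1).

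**Figure D4:**
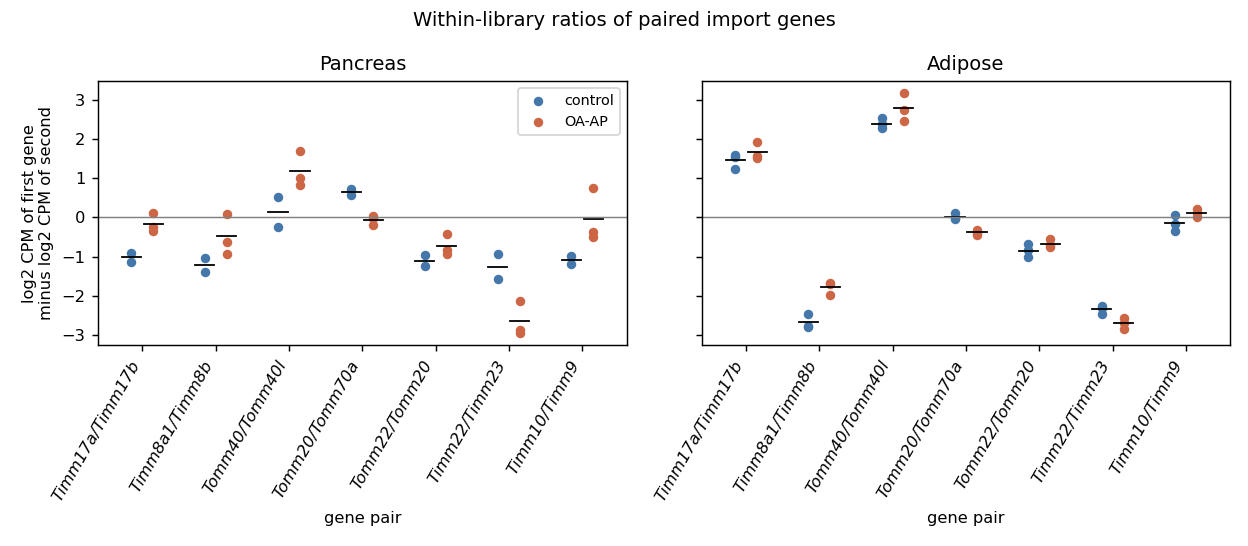
Log2 CPM of the first gene minus that of the second within each library for 7 gene pairs in the pancreas (left) and adipose tissue (right), with control libraries in blue, OA-AP libraries in orange and means as black bars. In the pancreas the groups stand apart for every pair. Tomm20/Tomm70a and Timm22/Timm23 lie lower in OA-AP mice in both tissues, whereas Timm17a/Timm17b overlaps in adipose tissue.

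The other genes of the import pathway were described from 9 fixed lists with 40 genes, all of which were tested in both tissues. In the pancreas 12 of them were downregulated and 1 upregulated, against the 13.5% and 16.2% of all genes, and their median log2 fold change was -0.32. Of the 7 MICOS genes, which shape the cristae and bind the import machinery, 5 were lower, with a list median of -1.14. Minos1, a core MICOS subunit, measured 24.1 and 25.2 CPM in control and 13.0, 9.95 and 10.7 CPM in OA-AP pancreas, a log2 fold change of -1.14 (SE 0.16, adjusted p = 0.00155). Chchd3, another MICOS gene, had a log2 fold change of -1.21 (SE 0.17, adjusted p = 0.00160). Dnajc19, a J-protein of the TIM23 motor, fell by 1.13 on the log2 scale (SE 0.18, adjusted p = 0.00250), and Pmpcb, a subunit of the peptidase that removes presequences, by 1.03 (SE 0.17, adjusted p = 0.00307). The upregulated gene was Grpel1, the nucleotide exchange factor of the same motor, at 25.0 and 25.1 CPM in control and 53.0, 44.7 and 66.4 CPM in OA-AP pancreas (log2 fold change 1.13, SE 0.19, adjusted p = 0.00312), named here after its values were seen. Without control replicate 1 the count of downregulated genes was 5 and without control replicate 2 it was 4. With library totals alone none of the 40 was lower in the pancreas and 12 were higher.

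In adipose tissue, 1 of the 40 was higher and 2 were lower, smaller shares than the 12.1% and 13.0% of all tested genes. The higher gene was again Grpel1, at 54.7, 53.0 and 57.2 CPM in control and 94.1, 76.3 and 85.6 CPM in OA-AP mice (log2 fold change 0.63, SE 0.10, adjusted p = 0.00366). It was not called there with library totals alone or without OA-AP replicate 1. Mtx3, an outer membrane assembly gene, fell by 0.59 on the log2 scale (SE 0.09, adjusted p = 0.00286), just past the fold threshold. Without control replicate 3 none of the 40 was called lower in adipose tissue. Mtx3 was called lower in the pancreas too, with a log2 fold change of -0.96 (SE 0.17, adjusted p = 0.00456 by edgeR's test). No MICOS gene passed both thresholds in adipose tissue, where the list median was 0.02 and Chchd3 had a log2 fold change of -0.37 with an adjusted p of 0.0203, short of the fold threshold. The change was higher in adipose tissue than in the pancreas for 12 of the 40 and lower for 0 past both thresholds of edgeR's test. Of all tested genes 10.4% were higher and 10.2% lower by the same criteria. By adjusted p alone 13 of the 40 were higher and 0 lower. At an unadjusted p under 0.05, 18 were higher and 3 lower. These counts of the tissue test hold for TMM scaling and were not recomputed with library totals.

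**Figure D5:**
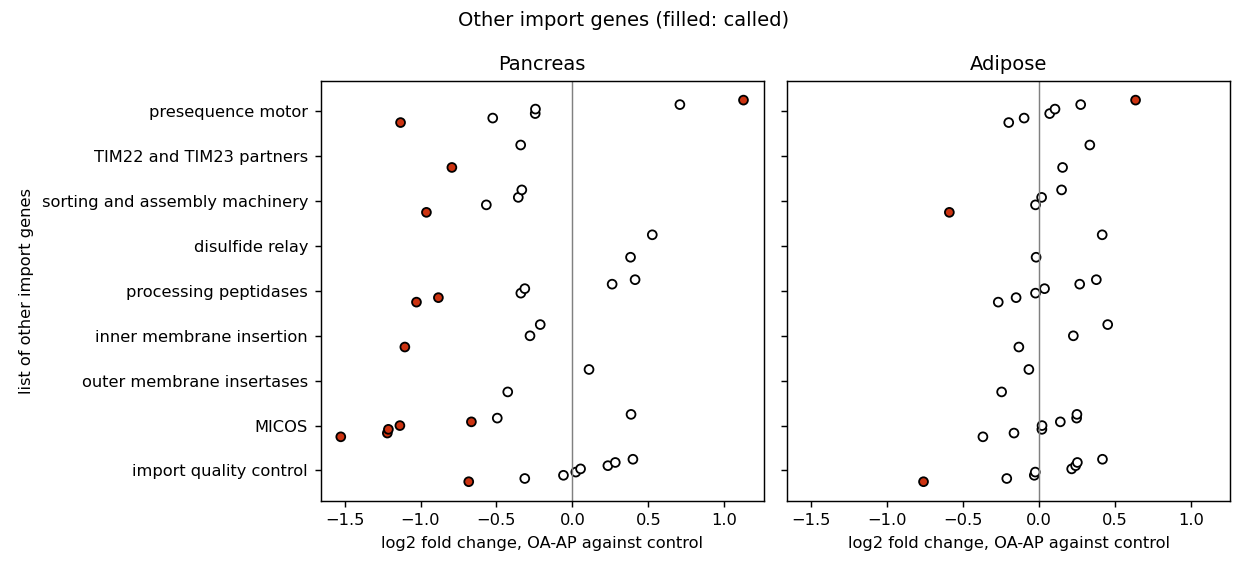
Log2 fold change of OA-AP against control for each of 40 other import genes in the pancreas (left) and adipose tissue (right), grouped by list, with filled points past both thresholds and vertical offsets for legibility only. In the pancreas 5 of 7 MICOS genes are filled on the left of 0, and Grpel1 is the point on the right of 0 that is filled in both tissues.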

How the data were processed

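Bulk RNA was sequenced in 5 pancreas and 6 adipose libraries. Per the submitters' processing notes, Trim Galore 0.6.6 and fastp 0.20.1 cleaned the reads, STAR aligned them to GRCm38 and featureCounts 2.0.1 assigned them to genes. The authors deposited whole-number counts without normalization. The annotation release and strand setting are not given in the sources used here, and the kit named in the methods does not mark strand. The deposited gene length of the pancreas table, a value of other kind than counts, served for levels per kilobase in both tissues. For Timm21 it is shorter than the exons of GENCODE M21 (1315 against 3722 bases), so no level per kilobase is given for that gene.

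Genes were filtered with filterByExpr and scaled with TMM over the genes kept, and each tissue was fitted with edgeR 4.0.16 (robust quasi-likelihood test, R 4.3.3). DEGs had a Benjamini-Hochberg adjusted p under 0.05 over all tested genes and a fold change of at least 1.5. SE is the absolute log2 change over the root of the F statistic. Ratios used log2 CPM with a prior count of 2 and SciPy 1.17.1. The fits were tested on simulated counts with 200 changed genes. There edgeR recovered 83.0% of them in the pancreas, 94.0% in adipose tissue and only 34.5% in the tissue by condition test. DESeq2 recovered 43.0% in the tissue by condition test. The tissue test can thus miss many differences. Exonic overlaps are from GENCODE M21 and promoter windows from RefSeq on GRCm38.p6. Alternatives were DESeq2 1.42.0, its size factors, library totals, TMM without acinar genes, other count filters and fold thresholds, a replicate block and leaving out each library.

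The members, lists and tests were chosen with earlier results of these data known. Values are given in every library for members called in a tissue and for pairs whose ratio is described, and other import genes are named up to 4 per tissue by smallest p, of which 1 is not reported here. Timm10 and Timm29 in the pancreas, Tomm5 in the pancreas and members under the fold threshold were named after their values were seen. Within a tissue, the correlation of same-numbered control and OA-AP libraries' deviations from their group means ran from -0.16 to 0.06. For different-numbered libraries of adipose tissue it ran from -0.25 to 0.29. With 2 or 3 libraries per group these deviations are tied to each other, so the check cannot settle whether replicate numbers pair. Chi-square per degree of freedom between replicates was 7.56 or more. Libraries are labelled as separate samples, and p-values measure only the spread between them. The common dispersion gave a coefficient of variation between replicates of 0.214 (pancreas) and 0.190 (adipose tissue).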

Additional observations from a re-analysis of the deposited data

Results flagged for a closer look

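The change between control and OA-AP mice differed between the 2 tissues for 7 import genes by the tissue by condition test of edgeR, with adjusted p under 0.05. As the adipose log2 fold change minus that of the pancreas, the values were 1.19 for Tomm5, 1.11 for Timm17b, 1.11 for Timm8a1 and 0.69 for Tomm7, and -0.78 for Timm23, -0.83 for Tomm34 and -0.68 for Timm50. Of these, Tomm5 and Timm17b were called in 19 of 20 fits each, Timm23 and Tomm34 in 17, Timm50 in 16, Tomm7 in 15 and Timm8a1 in 6.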

How the results depend on the processing

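Of 137 recomputed counts of called genes 94 stayed within 1.5 times the count reported, and of 234 recomputed log2 fold changes of called members 189 kept direction and call, 43 kept direction but lost the call and 2 reversed.  In no case was the cause of a change tested.

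With library totals alone the log2 fold change of Tomm7 in the pancreas was 0.070 and its tissue difference -0.16. Under that scaling 0 members were lower and 7 higher in the pancreas (2 and 1 as reported), as were 0 and 12 of the other import genes (12 and 1), and 0 other import genes were higher in adipose tissue (1). All called genes then numbered 6349 in the pancreas (3834) and 6527 in the tissue test (3507), the latter with 6153 lower and 374 higher (1732 and 1775).

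Without a filter on low counts 1 member was lower and 3 were higher in the pancreas, and 2 other import genes were higher, as with DESeq2 and with at least 10 counts in every library. With a fold change of at least 2, 1 member was lower in the pancreas, 1 lower and 1 higher in adipose tissue and 3 were called in the tissue test, and 7 other import genes were lower in the pancreas and 0 lower or higher in adipose tissue. With no fold threshold 2 members were higher in the pancreas and 8 in adipose tissue (3), and 4 other import genes were higher in adipose tissue.

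With the replicate block within tissues 2 other import genes were higher in the pancreas and 1 lower in adipose tissue (2). With the replicate block over mice 2 members were called in the tissue test (7), and 2156 genes in all. The blocks changed no other count by over 1.5 times. Whether same-numbered pancreas and adipose libraries come from 1 mouse is not stated in the labels, and their deviations from the group means correlated from -0.05 to 0.13 over 11977 genes.

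Leaving out each library in turn gave 1 to 2 members lower and 1 to 2 higher in the pancreas, 1 to 2 lower and 2 to 5 higher in adipose tissue and 2 to 7 in the tissue test. For other import genes it gave 4 to 12 lower and 1 to 2 higher in the pancreas and 0 to 2 lower and 0 to 2 higher in adipose tissue. The pancreas rests on 2 controls: without control replicate 1 or 2 all called genes fell to 1687 and 1495. A fit with 1 control assumes that this library varies like the OA-AP group. Depth limits Timm10b and Tomm6os in the pancreas most, at 3 to 37 counts per library.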
